A study of Ascaris suum with 28 samples.

Results

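Among 15399 gene identifiers of the pig roundworm Ascaris suum, 42 were selected on measured RPKM values: their RNA was seen in polysome gradients of zygotes and embryos while their level in poly(A) RNA stayed low. Each had less than 2 RPKM in all 13 poly(A) libraries and a gradient mean of at least 10 RPKM on at least 1 of days 0, 1, 3, 5 and 7. RPKM is a read number divided by the length of the gene and the size of the library, and the gradient mean is the mean RPKM of the heavy, middle and free fraction of a day. The 42 RNAs make up 2.19% of the 1915 genes under 2 RPKM in all poly(A) libraries and 0.273% of the table. They are set below against the 9209 genes that also reached a gradient mean of 10 RPKM but had 2 RPKM or more in a poly(A) library, called the poly(A)-positive genes. The files pair no identifier with a gene name and hold no sequence, so the products of the 42 genes are not given.

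The gradients came from zygotes of uterus region 4 (day 0) and from 1-cell (day 1), 4-8-cell (day 3), 32-64-cell (day 5) and about 256-cell embryos (day 7). The poly(A) libraries came from oocytes with wall, zygotes of uterus regions 1 to 4, embryos at 24 h (1 cell), 46 h (1-2 cells), 64 h (2-4 cells), 96 h (10-26 cells), 116 h (32-64 cells) and day 7 (about 256 cells), and L1 and L2 larvae. All worms were of a North American wild population, eggs were pooled from many females, and they developed in acidic phosphate-buffered saline. The design text treats gradients and transcriptomes of a stage as biological replicates of each other, with an amount of gradient RNA matched to total RNA. Each day had 1 gradient and each fraction 1 library, so no level has a replicate error. The column headed oocyte and the 64 h column were assigned to their poly(A) libraries by inference, since their names also fit other libraries of the series.

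In a polysome gradient, RNA is spun through a density gradient, so that mRNA carrying many ribosomes collects in the heavy fractions, mRNA with few ribosomes in the middle, and RNA free of ribosomes near the top. Poly(A) selection captures RNA by its adenosine tail and misses RNA with a short tail or none. Many animal eggs store maternal mRNA with short tails, which are lengthened when translation begins. The extract protocol in the labels lists poly(A) selection for the gradient samples as well, and does not say whether the RNA of each fraction was selected.

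Summed over all genes, the 15 gradient columns held between 236086 and 918364 RPKM, and the poly(A) columns between 311996 and 453746. Sequencing depth is unknown, as the files give no read counts. Genes listed at 0 made up between 6.70% and 23.7% of all genes in the gradient columns, and between 5.25% and 29.8% in the poly(A) columns, with the highest share in L2. In L2 the lowest 5% of values above 0 reached up to 1.3 RPKM, against 0.1 or 0.2 RPKM in the other poly(A) columns, so a value under 2 RPKM is less finely resolved there. In whole embryos, fewer cells of a type and less RNA per cell cannot be told apart.

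Poly(A) RNA of the 42 genes was low but mostly not absent. ASU_02385, ASU_02405, ASU_03648, ASU_06136, ASU_06415, ASU_09322 and ASU_11213 had a value of 0 in each of the 13 poly(A) libraries, while the other 35 had a value above 0 in at least 1 of them. The highest poly(A) value of a gene had a median of 0.35 RPKM over the 42 and was under 1 RPKM in 35 of them. Members were above 0 most often in L1, with 28 of 42, and at 24 h, with 23, and least often at 116 h, with 5, and in L2, with 0. Nearest to the limit of 2 RPKM lay ASU_06234 inside it, at 1.9 RPKM at 24 h, and ASU_13823 outside it, at 2 RPKM in L2. Nearest to the limit of 10 RPKM lay ASU_12785 inside it, with a gradient mean of 10.1 RPKM on day 7, and ASU_10712 outside it, with 9.97 RPKM on day 7. The remaining 1873 genes under 2 RPKM in poly(A) RNA had a median highest gradient mean of 0.6 RPKM, and 1236 of them stayed under 1 RPKM.

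Day 7 carried the selection. The gradient mean reached 10 RPKM in 14 of the 42 genes on day 0, in 3 a day later, in 6 at day 3, in 7 at day 5 and in 41 at day 7. For days 0, 1, 3, 5 and 7 its medians over the 42 were 5.28, 0.7, 2.83, 2.27 and 21.5 RPKM. The poly(A)-positive genes had medians of 15.5, 13.9, 13.3, 22.9 and 20.1 RPKM on the same days. The median of the 42 lay below that of the poly(A)-positive genes on days 0 to 5 and close to it on day 7. In the poly(A) library of about 256-cell embryos, also of day 7, the highest value of any of the 42 was 0.7 RPKM and 32 were listed at 0. By pattern, 26 genes reached 10 RPKM on day 7 alone, 8 on days 0 and 7, and 3 on all 5 days. ASU_09322 was the 1 gene that did so on day 0 alone. The levels on a day chose these genes, so no test is given for them.

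**Figure D1:**
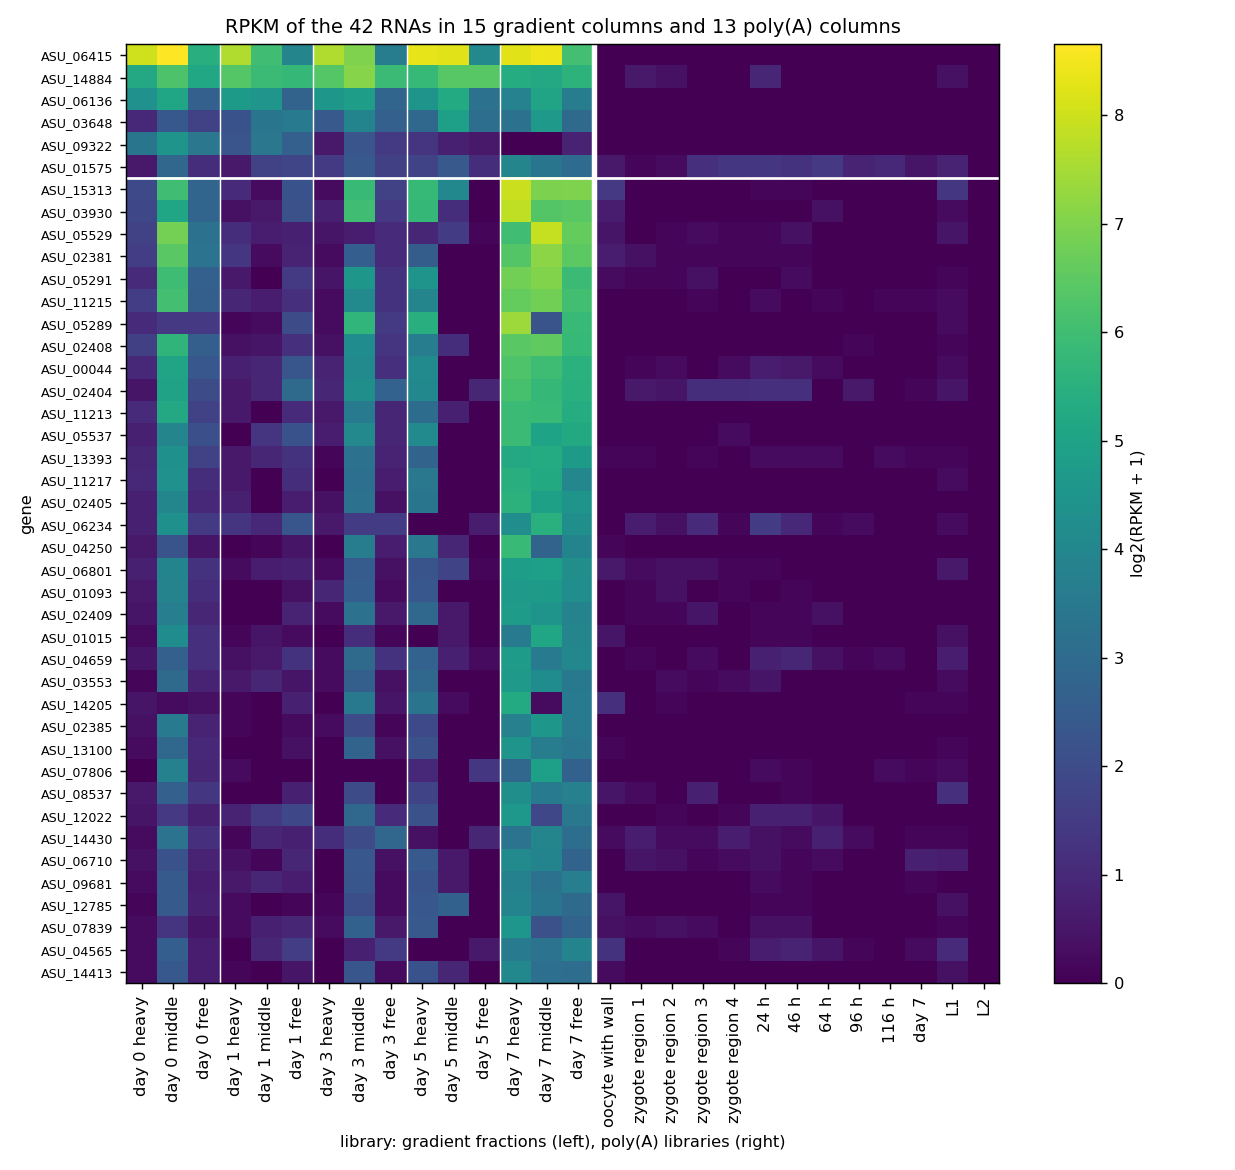
Each row is 1 of the 42 genes and each column 1 library, with gradient fractions left of the thick line and poly(A) libraries right of it; colour gives log2(RPKM + 1). The 36 genes below the horizontal line have most of their signal in some or all of day 0 middle, day 3 middle, day 5 heavy and the 3 day 7 fractions. The 6 genes above it are less concentrated in these columns.

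Most of the 42 RNAs were unevenly spread over the gradient columns. For 36 of them most of the signal lay in 6 of the 15 columns, namely the middle fraction of day 0, the middle fraction of day 3, the heavy fraction of day 5 and all fractions of day 7. In these columns the median over the 42 was 13.95 RPKM in day 0 middle, 6.65 in day 3 middle, 5.65 in day 5 heavy, and 26.05, 26.95 and 14.7 in the heavy, middle and free fractions of day 7. The other fractions of the same days were nearly empty. The median was 0.6 RPKM in the heavy and 1.35 in the free fraction of day 0, and 0.2 and 1 in those of day 3. On day 5 it was 0.1 RPKM in the middle and 0 in the free fraction, and on day 1 it was 0.4, 0.5 and 1.15 RPKM in the heavy, middle and free fractions. Together the 42 genes held between 0.0135% of the RPKM total, in day 5 free, and 0.489%, in day 7 heavy. These 6 columns were singled out after the values were seen, so what follows about them is description. Whether levels in these columns reflect position in the gradient was not tested.

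For 36 of the 42 genes the mean of the 6 columns was at least 5 times the mean of the 9 other gradient columns. The same held for 8.62% of the table, and for 566 of the 9209 poly(A)-positive genes. The median ratio was 29.3 over the 42 genes and 1.44 over the poly(A)-positive genes. All fractions of day 7 are among the 6 columns. On that day 41 of the 42 genes reached the gradient mean of 10 RPKM used to choose them. High ratios over the 42 are thus set in part by the selection. Of the 324 values of these 36 genes in the 9 other columns, 291 were under 2 RPKM, and the highest was 15.4 RPKM. The 6 columns held a median of 95.6% of the summed RPKM of a gene among the 36.

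Within a day the contrast between neighbouring fractions was steep. On day 0 the middle fraction was at least 5 times as high as both others, at 5 RPKM or more, in 25 of the 42 genes, against 0.844% of the table. On day 3 the middle fraction was so in 20 genes, against 1.04% of the table, and on day 5 the heavy fraction was so in 17, against 0.448%. On day 7 no member had a fraction 5 times above both others. As shares of the gradient sum of a day, the middle fraction had a median of 85.7% on day 0 and 90.8% on day 3 over the 42 genes, against 51.9% and 50.6% over the poly(A)-positive genes. On day 5 the heavy fraction had a median share of 91.6% over the 42 genes and 33.3% over the poly(A)-positive genes. Day 7 was more even, with medians of 41.6% heavy, 33.6% middle and 24.0% free over the 42 genes, against 27.7%, 56.2% and 13.5% over the poly(A)-positive genes. On day 1, when gradient means of the 42 were lowest, the free fraction was the highest of the day in 29 genes (69.0%, against 19.2% of the poly(A)-positive genes), an order that rests on values near 1 RPKM.

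**Figure D2:**
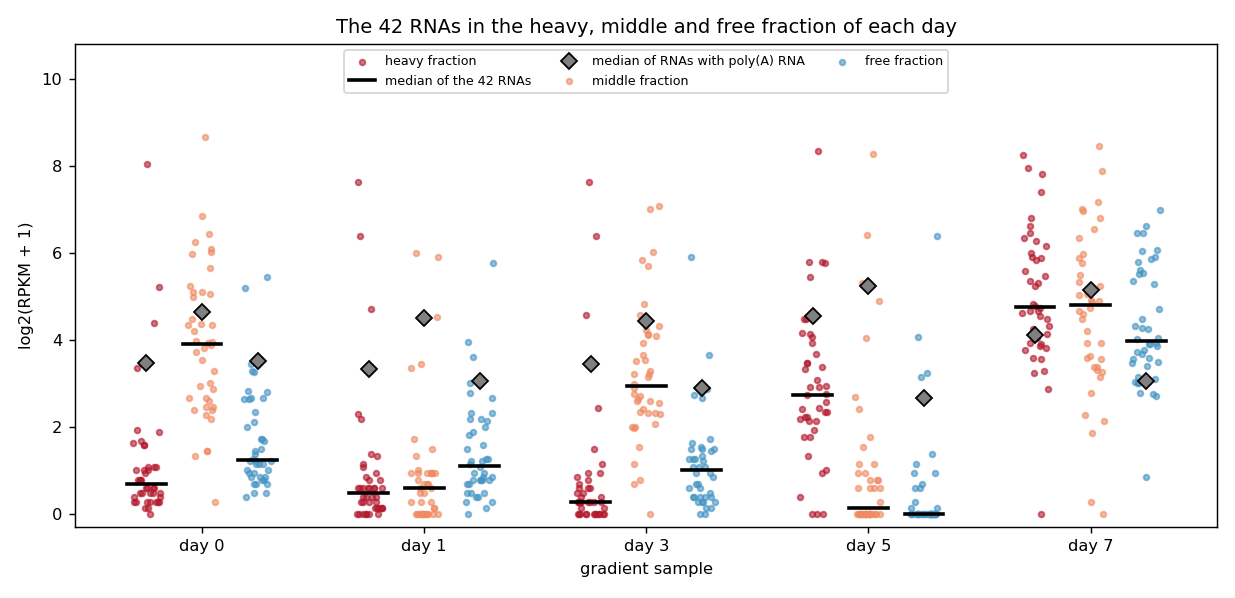
Points are the 42 genes in each gradient column on a log2(RPKM + 1) axis, with heavy left of middle and middle left of free for each day; black bars are their medians and grey diamonds the medians of the 9209 poly(A)-positive genes. Medians of the 42 lie above the diamonds in the heavy and free fractions of day 7 and below them in the other 13 columns.

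ASU_15313 shows the concentration in the 6 columns at high level, though its day 5 heavy fraction was under 5 times the middle one. It had 2.8, 63.4 and 6 RPKM in the heavy, middle and free fractions of day 0, 1.1, 0.2 and 3.5 RPKM on day 1, and 0.2, 56.1 and 2.3 RPKM on day 3. On day 5 it had 54.4, 15.4 and 0 RPKM, and on day 7 247.7, 123.6 and 126 RPKM. In poly(A) RNA it had 1.7 RPKM in oocytes, 1.6 in L1, 0.1 at 24 h and at 46 h, and was listed at 0 in the other 9 libraries. Its highest column on each of days 0, 3 and 5 was thus the middle, the middle and the heavy fraction.

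Between some of the 6 columns, ratios varied little from gene to gene. Over the 37 of 42 genes with 3 RPKM or more in both, day 7 middle was a median of 1.90 times day 0 middle, with quartiles of 1.71 and 2.06. Over the poly(A)-positive genes the quartiles of that ratio were 0.607 and 2.82. Day 5 heavy was a median of 0.860 times day 3 middle over 32 genes, with quartiles of 0.777 and 0.991, against quartiles of 0.658 and 1.98 over the poly(A)-positive genes. Across all 42 genes, which are not independent replicates and share library and depth, Pearson r of log2 values was 0.86 between day 7 middle and day 0 middle and 0.94 between day 5 heavy and day 3 middle. Over the poly(A)-positive genes it was 0.25 and 0.71. Within 1 gradient, r over the 42 genes was 0.60 between day 3 heavy and day 3 middle, against 0.90 over the poly(A)-positive genes, and 0.54 between day 5 middle and day 5 heavy, against 0.89. It was 0.90 between day 7 heavy and day 7 free, against 0.83, so not all fractions of a day were less alike.

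The 36 genes differed in how much of their signal lay in day 0 middle and how much in day 3 middle, and day 7 followed the same order. Day 0 middle was the higher in 27 of them and day 3 middle in 9. Pearson r of the log2 ratios day 3 middle to day 0 middle and day 7 middle to day 7 heavy was -0.93 over the 36 genes. Both ratios used RPKM + 1. Over all poly(A)-positive genes r was 0.15. The 36 were picked for high levels in the 6 columns and the poly(A)-positive genes were not, so these values of r compare unlike sets. The gene at each end shows the span, both chosen after their values were seen. ASU_05529 had 114.2 RPKM in day 0 middle but 0.6 in day 3 middle and 0.9 in day 5 heavy, and on day 7 it had 63.1, 235.2 and 96.9 RPKM in the heavy, middle and free fractions. ASU_05289 had 1.7 RPKM in day 0 middle but 50.8 in day 3 middle and 42.7 in day 5 heavy, and on day 7 it had 167.1, 3.8 and 56.6 RPKM. In this pair, the high day 0 middle went with a high day 7 middle, and the high day 3 middle with a high day 5 heavy and day 7 heavy.

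**Figure D3:**
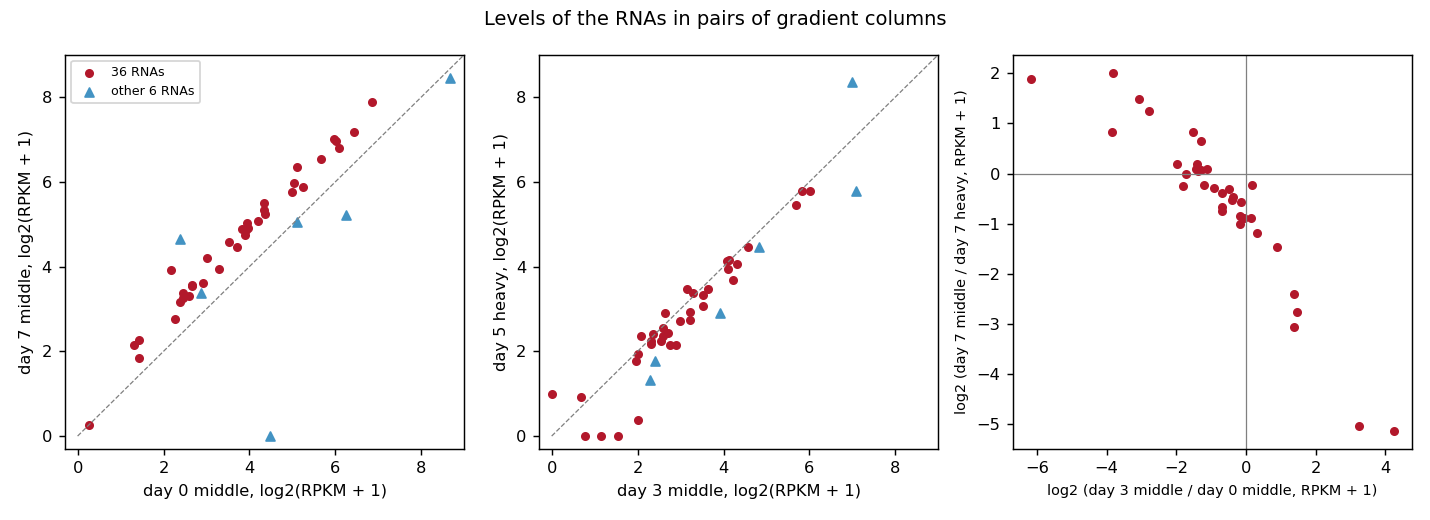
The first 2 panels plot each gene by its log2(RPKM + 1) in 2 gradient columns, with red circles for the 36 genes concentrated in 6 columns, blue triangles for the other 6 genes and a dashed line of equal levels. The third panel plots, for the 36 genes, the log2 ratio of day 7 middle to day 7 heavy against that of day 3 middle to day 0 middle, which fall along 1 descending band (r of -0.93).

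The other 6 genes were less concentrated in the 6 columns, and among them were the 3 that reached a gradient mean of 10 RPKM on all days. Nearest to the 36 genes was ASU_01575, with 72.7% of its summed RPKM in the 6 columns. ASU_06415 had the highest gradient mean of the 42 on every day, at 235.2, 91.4, 111.6, 215.4 and 239.3 RPKM. It had 260.9, 402.6 and 42.2 RPKM in the heavy, middle and free fractions of day 0, 197.3, 62.6 and 14.4 RPKM on day 1, and 196.5, 126.9 and 11.5 RPKM on day 3. On day 5 it had 324.5, 306 and 15.8 RPKM, and on day 7 304.5, 347.1 and 66.4 RPKM. The free fraction was the lowest on each of the 5 days, and no poly(A) library listed the gene above 0.

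ASU_14884 was present in all fractions at similar levels. It had 36, 74.4 and 35.3 RPKM in the heavy, middle and free fractions of day 0, 82, 58.4 and 53.8 RPKM on day 1, and 82.7, 134.5 and 58.6 RPKM on day 3. On day 5 it had 54.2, 83.7 and 83.1 RPKM, and on day 7 39.6, 36.2 and 47.3 RPKM. The middle fraction was the highest on days 0, 3 and 5, the heavy on day 1 and the free on day 7, and its poly(A) values reached 0.9 RPKM at 24 h.

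ASU_06136 was lower, with gradient means between 17.7 RPKM on day 1 and 22.6 RPKM on day 5 and no poly(A) library above 0. Its heavy, middle and free fractions had 19.9, 33.2 and 5.3 RPKM on day 0, 25.2, 22 and 5.8 RPKM on day 1, and 22.9, 27.2 and 6 RPKM on day 3. On day 5 they had 21.2, 38.3 and 8.4 RPKM and on day 7 13.4, 32.2 and 11.8 RPKM. The free fraction was again the lowest on each day, by less on day 7 than before.

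The remaining 3 of these genes differed in level between days and were chosen for the text after their values were seen. ASU_03648, with no poly(A) value above 0, had gradient means of 2.5, 7.97, 7.93, 14.3 and 13.2 RPKM over the 5 days in order. ASU_09322 fell from each day to the next, with means of 13.5, 6.33, 2.07, 0.9 and 0.267 RPKM. ASU_01575 had 14.2, 9.4 and 7.1 RPKM in the heavy, middle and free fractions of day 7 and no more than 6.3 RPKM in any column before. It also had poly(A) values above 0 in 12 of 13 libraries, up to 1.7 RPKM.

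**Figure D4:**
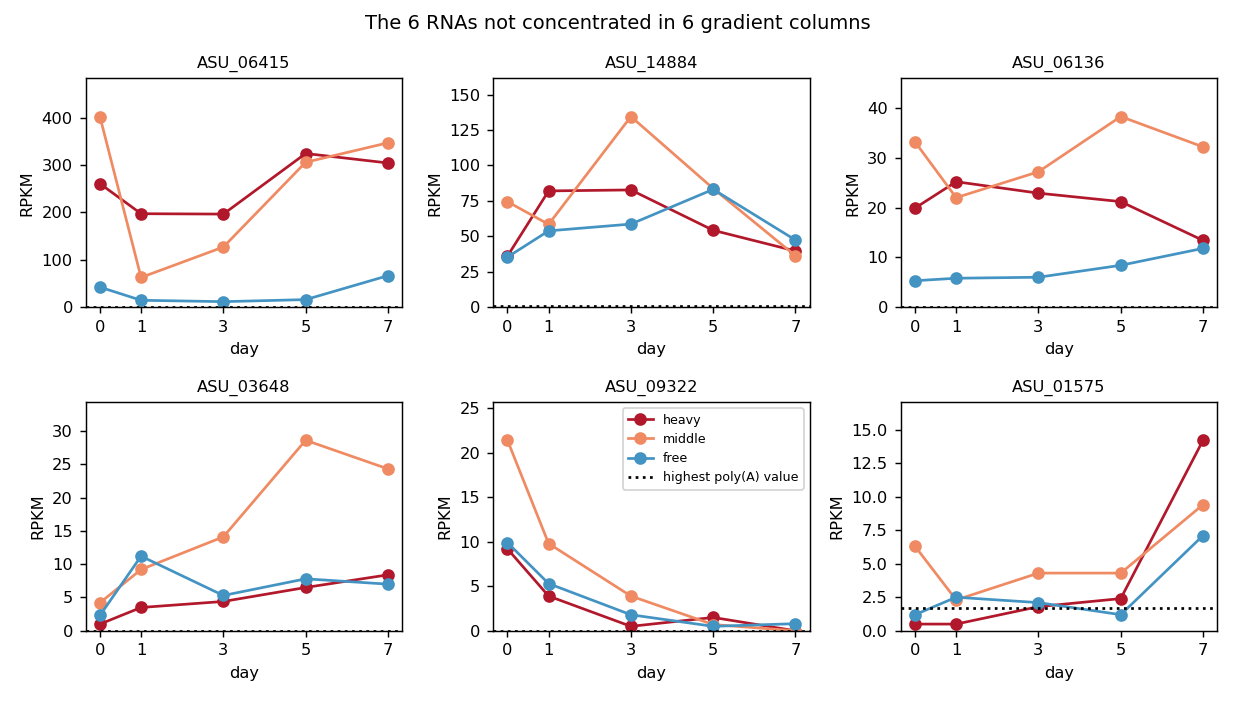
RPKM of the 6 genes other than the 36 concentrated in 6 gradient columns, against day. The heavy (red), middle (orange) and free (blue) fractions are separate lines, and the highest poly(A) value is a dotted line. Each point is 1 library. ASU_06415 and ASU_06136 have the free fraction lowest on all 5 days, and ASU_09322 is highest on day 0.

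Differences between fractions were tested. The choice of genes used the mean of the fractions and not their order, but a mean can be reached mainly through 1 high fraction. ASU_14205 had 38.5, 0.2 and 10.9 RPKM in the heavy, middle and free fractions of day 7. The tests are therefore not independent of the choice of genes. For most of the 42 they also rest on the 6 columns above, whose link to position in the gradient was not tested. Comparing heavy with free fractions is meant to ask which RNAs lie with many ribosomes and which lie free of them. Over 5 days, 2 of the 42 RNAs passed the test as higher in the heavy fraction, relative to the free fraction, and 0 as lower. ASU_06415 was higher by 3.34 ± 0.35 log2 units (SE, limma adjusted p = 4.04e-06) and ASU_06136 by 1.37 ± 0.31 (limma adjusted p = 0.00127), each on 5 of 5 days. In the same limma fit 29.8% of 13771 genes were higher in the heavy fraction, 19.6% were lower and 49.3% were called in all. The 4.76% of the 42 that were called is a smaller share, and their median SE was 0.54 log2 units, against 0.34 for all genes tested. The median difference was 0.33 log2 units over the 42 and 0.12 over all genes. With 1 day left out, the median of the 42 lay between -0.25 (without day 5) and 0.62 (without day 0), and after median-ratio scaling it was -0.12. After quantile normalization the median of all genes was -0.05, with 26.9% of genes higher and 27.3% lower, and after median-ratio scaling it was -0.35, with 22.1% higher and 38.5% lower. ASU_06136 then had 0.73 or 0.68 and was no longer called (limma adjusted p = 0.104 and 0.115), while ASU_06415 remained called. Of the 42, 1 was then higher and 3 lower after quantile normalization, and 1 higher and 5 lower after median-ratio scaling, so most calls were then lower ones. Without the 6 columns in which most of the 42 genes were high, 26 of them could be tested, and 2 were higher and 11 lower in the heavy fraction, where 20.4% of all genes were higher and 27.6% lower. These columns were left out because most of the 42 genes were high there, which removes the high day 5 heavy value but keeps day 5 free, so the lower calls are a description only.

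Between the middle and free fractions, 6 of the 42 RNAs were higher in the middle fraction and 0 were lower, where 54.0% of all genes were higher, 2.4% lower and 56.4% called in all. ASU_06415 was higher by 3.04 ± 0.35 log2 units (limma adjusted p = 1.99e-06) and ASU_06136 by 1.93 ± 0.31 (limma adjusted p = 2.8e-05). The others, named after their values were seen, were ASU_01015, ASU_03648, ASU_06801 and ASU_12785, of which ASU_01015 had the middle fraction higher on all 5 days. On days 1, 3 and 5 ASU_01015 had no more than 1.2 RPKM in these fractions, so those signs rest on low values. The count was 12 without day 1, where 53.7% of all genes were called, and 13 without day 5, where 52.7% were. These are 28.6% and 31.0% of the 42. The call of ASU_06136 was lost after quantile normalization and after median-ratio scaling, where the count was 2 (1 lower) and 3 (2 lower). In those fits 22.7% and 19.9% of all genes were higher and 22.0% and 32.6% lower, with medians of -0.03 and -0.26 in place of 0.92. ASU_14884 had a difference of 0.40 ± 0.30 that was not called (limma adjusted p = 0.277), and after median-ratio scaling it had -1.37 and was called.

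Between the heavy and middle fractions, 3 RNAs were lower in the heavy fraction and 0 were higher, where 50.1% of all genes were lower, 0.312% higher and 50.4% called in all. ASU_01015 had a difference of -1.50 ± 0.39 log2 units (limma adjusted p = 0.00644) and ASU_03648 of -1.49 ± 0.34 (limma adjusted p = 0.00272), each negative on 5 of 5 days. For ASU_01015 the heavy and middle values were 0.1 and 0.4 RPKM on day 1, 0 and 1.2 on day 3 and 0 and 0.5 on day 5. Its signs on those days thus rest on low values. Without day 0 its difference was -0.89 (limma adjusted p = 0.0392), and without the 6 columns it was not tested. ASU_05529, the third, was lower on 4 of 5 days. Its heavy and middle values were 0.4 and 0.6 RPKM on day 3 and 0.9 and 1.9 on day 5, so those signs also rest on low values. The count was 24 without day 5, which is 57.1% of the 42 in a fit that called 56.7% of all genes. It was 5 (11.9% of the 42) without day 3, 2 of them higher, and also 5 without day 7. Those fits called 28.7% and 44.3% of all genes. All 3 lower calls were lost after either scaling, where 3.08% and 2.64% of all genes were higher and 2.35% and 1.36% lower. ASU_06415 had a difference of 0.31 ± 0.35 that was not called (limma adjusted p = 0.451), but had 1.34 and was called after median-ratio scaling.

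A shift between fractions over development was tested as the change per day of the heavy minus free difference. By limma, 0 of the 42 RNAs were called and 5 had a p under 0.05 before adjustment. Of all genes tested 14.6% were called, 14.2% upwards and 0.363% downwards. That share fell to 0.290% after quantile normalization and 0.116% after median-ratio scaling, in both mostly downwards, and to 0 without day 1. The median change per day was 0.33 log2 units over the 42 and 0.17 over all genes. As 41 of the 42 reached the limit on day 7, and most were low before, this median is not independent of the choice of genes. With 1 day left out it lay between 0.20 (without day 5) and 0.54 (without day 7), against 0.14 and 0.24 over all genes. After quantile normalization and after median-ratio scaling it was 0.18, against 0.002 and 0.02. ASU_06415 had -0.04 ± 0.13 log2 units per day and ASU_15313 0.60 ± 0.35 (limma adjusted p = 0.846 and 0.225).

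**Figure D5:**
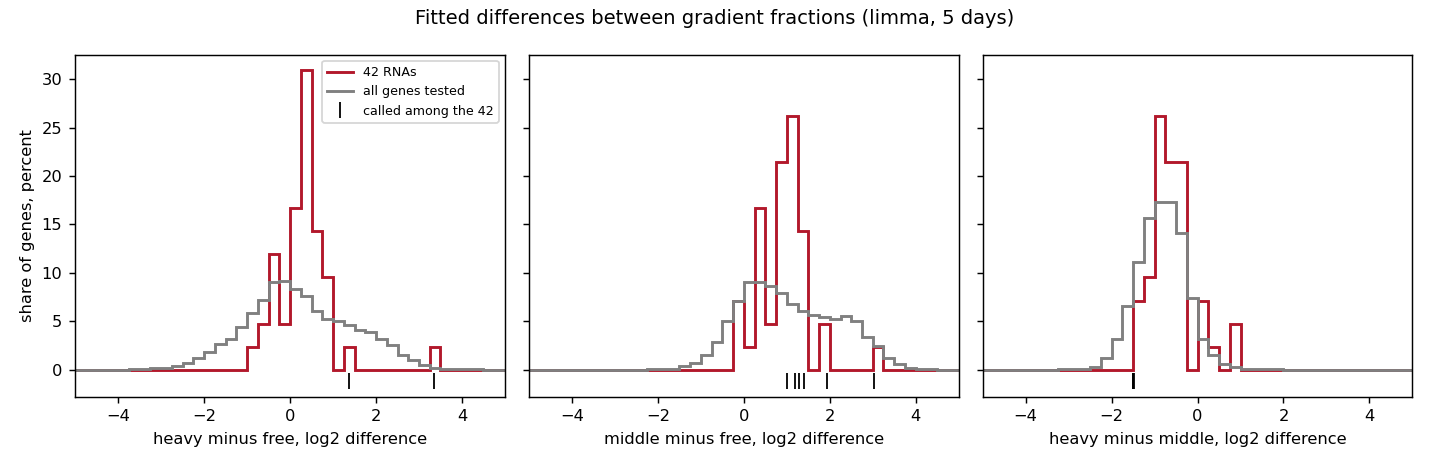
Distribution of fitted log2 differences between gradient fractions in 3 contrasts, as the share of genes in bins of 0.25 log2 units, for the 42 RNAs (red) and all 13771 genes tested (grey); black ticks mark the RNAs among the 42 with an adjusted p under 0.05. In the first 2 panels all of the 42 except ASU_06415, above 3, lie within 2 log2 units of 0, and in the last panel all 42 do.

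A part of the column pattern, in day 3 middle and day 5 heavy, also occurred among RNAs with higher poly(A) levels. Over the table, 40 genes had both day 3 middle and day 5 heavy at least 5 times above the other fractions of their day, and 15 of them were among the 42. The other 25 had highest poly(A) values between 2.5 and 1219 RPKM, with a median of 14.2 RPKM. Of these, 11 were highest in L2, 7 in oocytes, 5 in L1 and 2 in zygotes of region 3. In 20 of the 25, and in 11 of the 15, day 0 middle was also 5 times above the other fractions of its day.

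Some of the 42 had neighbouring identifiers, but whether more did than in other sets of this size was not tested. In 4 runs, 11 genes had another of the 42 within 5 identifier numbers, namely ASU_02381 and ASU_02385, 4 genes from ASU_02404 to ASU_02409, ASU_05289 and ASU_05291, and 3 genes from ASU_11213 to ASU_11217. Over the 15 gradient columns, which share libraries, Pearson r between log2 values of genes of a run lay between 0.77, for ASU_05289 and ASU_05291, and 0.99. ASU_05289 differed from its neighbour on day 0, with 1.7 RPKM in the middle fraction against 61.9 RPKM in ASU_05291. Of the 8 other genes inside these runs, ASU_02406 had a gradient mean of 160.3 RPKM on day 7 and was left out by a poly(A) value of 4.5 RPKM. The other 7 had highest gradient means between 0.0667 and 6.8 RPKM, so most of these 8 genes did not share the level of the 42. What the order of identifiers follows is not given in the sources used here, and whether neighbours are near-identical copies that share reads was not tested.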

How the data were processed

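The authors deposited 1 table of RPKM values with 15399 gene identifiers and 28 columns, 13 for poly(A) libraries and 15 for gradient fractions. Per the submitters' processing notes, reads were handled with Bowtie 0.12.7. For the counting tool, genome build and annotation the sources used here name nothing. The series design text says that sequencing strategies differed among libraries. Columns were matched to 18 of the 28 samples by name, with the oocyte and 64 h columns assigned by inference. The other samples were not analysed here. The members and all lists were chosen with earlier results of these data known.

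Log2(RPKM + 1) values of the fractions were compared with limma 3.58.1 (R 4.3.3). This scale understates changes of low genes. Fraction and day were terms, an intensity trend was used, and 8 residual degrees of freedom remained (6 for the change per day). Genes needed 1 RPKM in at least 2 of the 15 columns, which all 42 had. P-values were adjusted by Benjamini-Hochberg over all 13771 genes tested, with a threshold of 0.05. Days stand in for replicates, so errors measure variation between days. Fits were tested on simulated data. Genes were named by rule: the 2 with the largest called difference each way with 1 sign on all days, the highest gene of each day, the 3 with the highest median over days and the nearest to each limit. Gene lists could not be tested, as identifiers have no names. Alternatives changed the pseudocount, filter, scaling, trend, day term, days used and limits of the selection.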

Additional observations from a re-analysis of the deposited data

How the results depend on the processing

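Depth is unknown, and each value rests on 1 library. The number of genes selected was 111 with poly(A) RNA under 5 RPKM, 80 and 23 with gradient means of 5 and 20 RPKM, 70 with the highest fraction in place of the mean, 128 with zygote and embryo poly(A) libraries only, and between 16 (without day 7) and 42 with 1 day left out. With alternatives chosen after seeing the data, it was 5 without the 6 columns and 3 with the mean of the 9 other columns. The share at the limit on day 7 was 97.6%, and it was 80.2% under 5 RPKM, 87.1% with the highest fraction and 97.6% to 100% with a day left out. Genes called for heavy minus free were 4 (quantile), 6 (median ratio), 31 of 111 (poly(A) under 5) and 11 of 80 (gradient mean 5). They were 13 of 26 tested without the 6 columns and 2 to 3 with a day left out. In the same order, 54.2%, 60.6%, 49.3%, 49.3%, 48% and 37.3% to 50.8% of all genes were called. For middle minus free the genes called were 2 (quantile), 3 (median ratio) and 2 (no day term), where 44.7%, 52.5% and 36.5% of all genes were called. They were 24 (poly(A) under 5), 14 (gradient mean 5) and 3 (gradient mean 20), against 56.4% of all genes. With a day left out they were 4 to 13, against 51.3% to 55.7%. For heavy minus middle the genes called were 0 (quantile), 1 (median ratio) and 0 (no day term), where 5.43%, 4% and 1.78% of all genes were called. They were 35, 19 and 1 for the same selections, against 50.4% of all genes. Without the 6 columns they were 0, against 40.4%, and with a day left out 2 to 24, against 28.7% to 56.7%. For the change per day the genes called were 1 with a pseudocount of 5, 1 (quantile), 1 (poly(A) under 5), 1 (gradient mean 5) and 0 to 1 with a day left out. In the same order, 16.2%, 0.290%, 14.6%, 14.6% and 0 to 29.2% of all genes were called. For middle minus free, ASU_14884 had -1.37 after median-ratio scaling, against 0.40 in the fit reported. The cause was not tested. The day term already compares the fractions within each day. Beyond it, no paired analysis was possible because the labels give each group 1 sample.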
